A study of Mus musculus with 2 samples.

Results

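Replication-dependent histone genes were examined in 2 total RNA-seq libraries of mouse erythroblasts. They were chosen by name, as genes of both deposited gene tables whose GENCODE symbol begins with Hist1h, Hist2h, Hist3h or Hist4h. This gave 67 of the 42462 genes that were matched to the reference annotation, of which 64 are annotated as protein-coding and 3 as pseudogenes. They divide into 6 H1, 20 H2A, 16 H2B, 12 H3 and 13 H4 genes. Per the labels, the libraries came from primary erythroblasts of male C57BL/6J mice, adults aged 5 to 6 weeks. Input was 1 ng of RNA per library plus spike-in transcripts, with a stated size range of 150 to 400 and no unit. The labels name no treatment or altered allele, and the libraries form 1 group. They are numbered as biological replicates 1 and 2 under a single donor entry, and nothing says whether separate animals were used, so the spread given here may be technical. A title of the protocol mentions pools of 100 cells.

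Histones are the proteins that DNA is wound around in chromatin. H2A, H2B, H3 and H4 form the core of the nucleosome, and the linker histone H1 binds where DNA enters and leaves it. The replication-dependent genes supply histones while DNA is copied, lie in clusters, and mostly lack introns. Their mRNAs end in a conserved stem-loop in place of a poly(A) tail, and the stem-loop binding protein SLBP binds it. Replacement variants such as H3.3 and H2A.Z come from other genes whose mRNAs carry poly(A) tails, and they are made throughout the cell cycle. Erythroblasts divide a few more times while they mature and then condense and expel the nucleus. Total RNA-seq does not select for a poly(A) tail, so it can register histone mRNAs that end in the stem-loop.

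The members are close copies of each other, and that bears on each value given below. For every family, the 50-base stretch of coding sequence held by the most genes is shown, because a read that lies within such a stretch cannot be placed in 1 gene. The capitals mark the whole stretch as shared. The stretches were read on the coding strand from GENCODE M21 transcripts (GRCm38), and each is placed in 1 gene that holds it.
H1, in Hist1h1c, chr13:23738975-23739024, + strand: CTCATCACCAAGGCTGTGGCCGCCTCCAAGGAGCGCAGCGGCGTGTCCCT
H2A, in Hist1h2ab, chr13:23751379-23751428, + strand: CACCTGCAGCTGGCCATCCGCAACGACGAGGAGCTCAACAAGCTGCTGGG
H2B, in Hist1h2ba, chr13:23933831-23933880, - strand: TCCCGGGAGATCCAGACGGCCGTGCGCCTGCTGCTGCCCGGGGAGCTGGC
H3, in Hist1h3a, chr13:23762151-23762200, - strand: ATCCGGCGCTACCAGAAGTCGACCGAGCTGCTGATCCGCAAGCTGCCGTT
H4, in Hist1h4a, chr13:23760946-23760995, - strand: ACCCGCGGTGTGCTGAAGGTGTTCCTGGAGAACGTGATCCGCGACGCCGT

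The H1 stretch occurred in 3 genes and the H4 stretch in 11. The H3 stretch occurred in 14 genes and the H2B stretch in 15. The H2A stretch occurred in 39 annotated genes, 15 of them histone genes of the clusters, and 21 of the 39 are in the deposited tables. In all, 30 genes outside the clusters' histone genes share H2A coding stretches, and 24 of them overlap a member in the annotation. Counted as separate places in the genome, any coding 50-base stretch lay at up to 19 places for H2A and 15 for H2B. The highest figure was 12 places for H3, 11 for H4 and 3 for H1. The H2A stretch shown lay at 18 places and the H4 stretch shown at 10. Over all coding stretches of a family's members, 37.7% of those in H2A lay at more than 10 places, against 35.99% in H2B, 11.9% in H3, 8.14% in H4 and 0% in H1. Stretches found at 1 place only made up 87.6% for H1, 39.3% for H4, 26.9% for H2B, 25.8% for H2A and 15.3% for H3. Sharing was thus widest in H2A and H2B and narrowest in H1.

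The stem-loop was searched for because it marks where a replication-dependent mRNA ends. It has 16 bases, a stem of 6 pairs and a loop of 4 bases, and is shown as DNA with the loop in capitals. The models of 44 of the 67 members hold it, and of the 23 without it, 16 have a model that ends within 10 bases of the coding sequence. The forms found in more than 1 gene, from GENCODE M21 transcripts (GRCm38) and on the coding strand, are these.
Form in 26 genes of the H1, H2A, H2B and H3 families: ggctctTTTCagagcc
Form in 7 genes, all H4: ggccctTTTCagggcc
Form in 6 genes of the H1, H2B and H3 families: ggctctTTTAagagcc
Form in 2 H4 genes, Hist1h4i and Hist2h4: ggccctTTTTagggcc
Form in 2 H4 genes, Hist1h4b and Hist1h4j: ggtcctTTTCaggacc

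These counts run over 70 annotated genes, 3 of which, Hist1h2bm, Hist1h2bh and Hist2h2bb, have no row of their own in the gene tables by identifier. The first pair of forms differs in the stem, and every H4 gene with a stem-loop has a stem other than the one in the first form.

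Most members had low values in units of TPM (a level per length, scaled by the authors to a fixed total over all rows of a table). Nuclear protein-coding genes held only 4.68% and 5.10% of that total, so their values are low on this scale. Detection required at least 1 TPM in each library, and 37 of the 67 members met this, or 55.2%, against 8.12% of all genes and 14.5% of nuclear protein-coding genes. With TPM rescaled to nuclear protein-coding genes, 51 members were detected. The share of all genes on that scale is not given here. A mean TPM of 10 or more was reached by 9 members, 32 lay between 1 and 10, and 17 had counts but a mean under 1. The remaining 9 members were listed at 0 counts in both libraries. The median member stood at 1.48 TPM, beside 0.035 TPM for nuclear protein-coding genes. Together the members reached 363.4 TPM in replicate 1 and 361.6 TPM in replicate 2, a mean of 362 ± 1.27 (SD, n = 2). The protein-coding members took 0.776% and 0.707% of all TPM on nuclear protein-coding genes, or 1.31% with the globin genes left out of that total. The counts behind these levels were 13249 and 18778 expected counts, which are estimates of reads after shared reads are divided among genes.

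**Figure D1:**
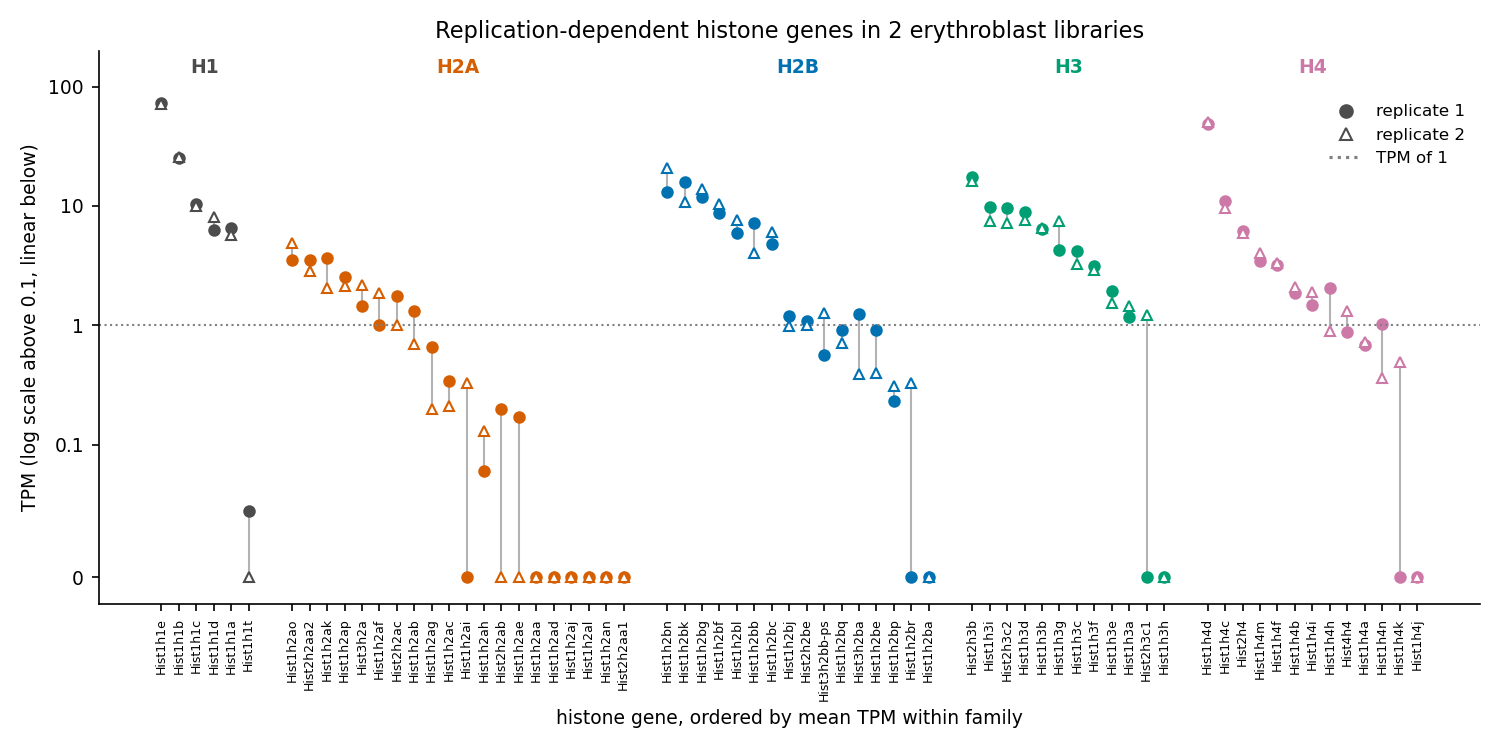
TPM of each of the 67 histone genes (vertical axis, log scale above 0.1 and linear below) in replicate 1 (filled circles) and replicate 2 (open triangles), grouped by family and ordered by mean TPM. Hist1h1e and Hist1h4d stand above all others, the libraries lie close together for the highest genes, and 9 genes lie at 0 in both.

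The library totals were 80806663 and 117032607 expected counts, and nuclear protein-coding genes took 5.44% and 5.82% of them. All 6 erythroblast markers were detected, including Hbb-bs at 7310 ± 698 TPM and Alas2, the erythroid heme synthesis enzyme, at 179 ± 5.54 TPM. The lowest of the 6 were Gata1 at 3.17 ± 1.30 TPM and Klf1 at 2.98 ± 0.21 TPM. All 5 neutrophil markers were detected too, and summed to 1826 and 2128 TPM, with S100a9 at 747 ± 118 TPM and Mpo, which granulocyte precursors make, at 88.5 ± 4.65 TPM. None of the 4 B lineage markers was detected, and Vpreb1 and Igll1 had 0 counts. The 4 testis germ cell markers summed to 0.05 and 0 TPM, and Tnp1, Prm1 and Hist1h2ba had 0 counts. The part of other dividing blood cells in the histone levels was not tested. In bulk RNA, fewer cells of a type and less RNA per cell cannot be told apart.

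The linker histones held the largest summed level of the 5 families among the gene rows, at 122.2 and 120.3 TPM (121 ± 1.33, n = 2), although they have the fewest genes. Hist1h1e, which encodes H1.4, was measured at 73.55 TPM in replicate 1 and 71.00 in replicate 2 (72.3 ± 1.80). It was the highest of all 67 members and held 59.6% of the H1 total and 19.9% of the total of all members. It lies on chromosome 13 (23620629 to 23622558, - strand, GRCm38), and its annotated span overlaps Hist1h2be on the same strand. Hist1h1b, which encodes H1.5, followed at 25.40 and 25.58 TPM (25.5 ± 0.13). Hist1h1c (H1.2) stood at 10.32 and 9.91 TPM, Hist1h1d (H1.3) at 6.34 and 8.02, and Hist1h1a (H1.1) at 6.49 and 5.76. The first 3 did not overlap with each other or with the last pair in either library, whereas the order of Hist1h1d and Hist1h1a differed between the libraries. Hist1h1t, the testis linker histone, had 2 counts in replicate 1 and 0 in replicate 2.

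H1 values rest on few shared reads. Hist1h1a and Hist1h1b share no coding 50-base stretch with another gene, and 74.5% of those in Hist1h1e, 78.0% in Hist1h1c and 73.5% in Hist1h1d were their own. The deposited posterior SD of the count, a measure of how uncertain the division of shared reads is, was 0 for Hist1h1b and Hist1h1a. For Hist1h1e it was 1.56 counts of 3246 in replicate 1 and 1.65 of 4495 in replicate 2.

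Over the deposited lengths, the H4 level lay mostly in 1 gene. Hist1h4d (chromosome 13, 23581598 to 23582735, + strand) was measured at 48.40 and 50.53 TPM (49.5 ± 1.51, n = 2), which was 61.3% of the H4 total of 80.7 ± 0.74 TPM. It was the member with the second highest level, and of its coding stretches 57.3% were its own. Hist1h4c followed at 10.97 and 9.63 TPM, Hist2h4 at 6.13 and 5.97, Hist1h4m at 3.49 and 4.03, and Hist1h4f at 3.22 and 3.30. In deposited TPM, the fall from Hist1h4d to the next H4 gene was therefore much larger than the distance between the libraries. Hist1h4m and Hist1h4f lay within 1 TPM of each other in both. By other measures Hist2h4 came closer to Hist1h4d, with 660 and 936 counts beside 900 and 1298. With length up to the stem-loop, as described below, Hist2h4 stood at 39.1 ± 0.91 TPM of an H4 total of 117 ± 2.29. Hist1h4d stayed at 49.5 ± 1.51 TPM there. All these genes encode the same H4 core histone or nearly so. Hist1h4m and Hist1h4n have identical coding stretches, and the posterior SD of the count in replicate 1 was 18.2% of the count for Hist1h4m and 54.4% for Hist1h4n, so their division between the copies is loose. Hist4h4, alone on chromosome 6, was measured at 0.88 and 1.33 TPM with 174 and 385 counts.

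H3 was spread over more genes. Its total was 67.1 and 62.7 TPM (64.9 ± 3.13), and 10 of its 12 genes were detected. Hist2h3b led at 17.65 and 16.07 TPM, followed by Hist1h3i at 9.78 and 7.45, Hist2h3c2 at 9.63 and 7.19, Hist1h3d at 8.95 and 7.56, and Hist1h3b at 6.36 and 6.57. In deposited TPM, Hist2h3b lay above every other H3 gene in both libraries, but the next 3 genes were closer to each other than their libraries were. In counts Hist2h3c2 was higher, with 613.5 and 662.4 beside 448.8 and 574.5 for Hist2h3b. With length up to the stem-loop, as described below, Hist2h3c2 stood at 14.7 ± 2.88 TPM. Hist2h3b, whose model holds no stem-loop, kept 16.9 ± 1.11 TPM and stayed higher in both libraries. None of the coding stretches of Hist2h3b or Hist2h3c2 was found in that gene alone. Hist2h3b is also overlapped on the other strand by Gm20628, at 2.08 and 1.36 TPM. Whether the authors' counting used strand is not given in the sources used here. It is therefore not known whether reads of that pair were told apart. Hist1h3h was listed at 0 counts in both libraries, yet the posterior mean of its TPM was 0.59 and 0.37, and 79.3% of its stretches occur in Hist1h3i.

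H2B reached 73.7 and 78.8 TPM (76.3 ± 3.65) over its 16 gene rows. Hist1h2bn stood at 13.20 and 20.63 TPM, Hist1h2bk at 15.75 and 10.84, Hist1h2bg at 11.79 and 13.84, Hist1h2bf at 8.78 and 10.41, and Hist1h2bl at 5.93 and 7.68. The order of the first 3 differed between the libraries, and these 3 genes do not differ beyond their spread. No single gene led the family as Hist1h4d led H4, since Hist1h2bn held 22.2% of the H2B total. Of the coding stretches, 13.7% in Hist1h2bn and 3.95% in Hist1h2bk were found in no other gene. Hist1h2ba, the testis H2B, had 0 counts.

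More H2B sequence lies in the tables than these rows hold. The transcript tables contain 4 histone transcripts filed under other gene identifiers, which became apparent only when transcripts were matched by their own identifiers. The transcript of Hist2h2bb is filed under the identifier of Gm42743 and was measured at 33.44 and 34.85 TPM (34.1 ± 1.00, n = 2), with 593 and 851 counts. That level is above every H2B gene row and would be the third highest among all members. Short transcripts of Hist1h2bq (4.56 and 3.66 TPM) and Hist1h2br (4.09 and 6.79 TPM) are filed under identifiers that the reference does not hold. With these transcripts H2B totalled 115.8 and 124.1 TPM (120 ± 5.92), and the sum over all families rose from 362 ± 1.27 to 407 ± 0.32 TPM. The H2B share rose from 21.0 ± 1.08% to 29.5 ± 1.43% of histone TPM, and the H1 share fell from 33.4 ± 0.25% to 29.8 ± 0.35%. The ratio of H1 to H2B was 1.59 ± 0.09 over the gene rows and 1.01 ± 0.06 with the added transcripts, so that these 2 families no longer differed beyond the spread between the libraries.

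**Figure D2:**
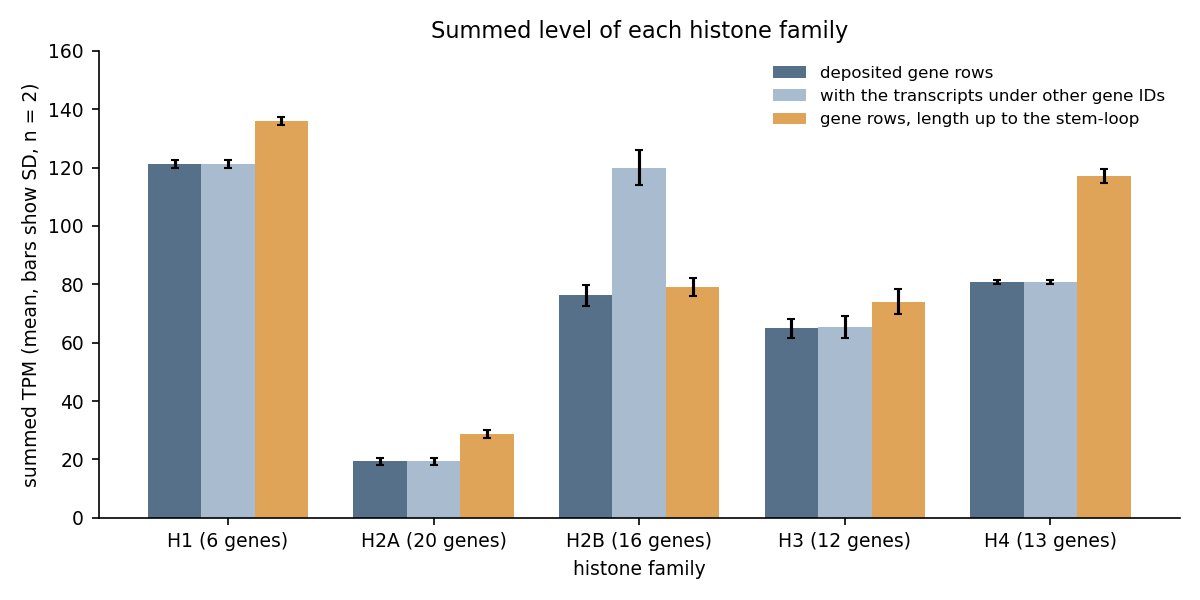
Summed TPM of each histone family (mean of 2 libraries, error bars show SD) over the deposited gene rows, with the transcripts filed under other gene identifiers added, and with lengths of 25 members taken up to the stem-loop. H2A is the lowest family in each version, and H2B rises to about the level of H1 when the transcripts are added.

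H2A was the lowest family although it has the most genes. Its total was 20.2 and 18.5 TPM (19.4 ± 1.20), or 5.34 ± 0.31% of histone TPM. H2B was higher by a ratio of 3.95 ± 0.43, H3 by 3.35 ± 0.05, and H4 by 4.18 ± 0.30, each beyond the spread between the libraries. In expected counts, with no length correction, the ratios were 3.13 ± 0.17, 3.20 ± 0.27 and 3.35 ± 0.09. H2A genes were detected in 7 of 20 cases, against 8 of 16 for H2B, 10 of 12 for H3, 7 of 13 for H4 and 5 of 6 for H1. The highest H2A genes were Hist1h2ao at 3.52 and 4.86 TPM, Hist2h2aa2 at 3.54 and 2.87, Hist1h2ak at 3.68 and 2.05, Hist1h2ap at 2.52 and 2.15, and Hist3h2a at 1.44 and 2.16. Their order changed between the libraries, and none of the 5 stood apart from its neighbours in both.

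Sequence values are set beside the low H2A level here. H2A coding stretches lay at the largest number of places, with 37.7% at more than 10 places, beside 35.99% for H2B. Stretches at 1 place only made up 25.8% for H2A and 15.3% for H3. The coding GC content had a median of 69.4% for H2A, against 62.7% for H2B, 67.4% for H3, 65.7% for H4 and 59.6% for H1. Genes outside the rule that share H2A coding stretches and are in the tables numbered 8, and held 6.21 and 4.20 TPM in sum. Most of that was the H2A.X gene H2afx, at 3.33 and 2.35 TPM. How reads that match many places were treated by the authors' aligner is not given in the sources used here, and the part of shared sequence or GC content in the H2A level was not tested. Hist1h2ao and Hist1h2ap share all coding stretches with each other, and the posterior SD in replicate 1 was 17.4% of the count for Hist1h2ao and 23.2% for Hist1h2ap. The family total does not depend on how reads are divided between such a pair.

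H2A and H2B genes often stand head to head and are transcribed away from each other. There were 13 such pairs with both genes in the tables and at most 500 bases between their annotated starts, with 172 to 305 bases in between. H2B was higher in both libraries in 8 pairs, H2A in 3, and 2 pairs showed neither order. Hist1h2bk was measured at 15.75 and 10.84 TPM and its partner Hist1h2ah at 0.08 and 0.13, in a pair with only 3.95% and 3.58% of own coding stretches. Hist1h2bg stood at 11.79 and 13.84 TPM beside Hist1h2ae at 0.17 and 0.00, and Hist1h2bf at 8.78 and 10.41 beside Hist1h2ad at 0 in both. Over the gene rows, the H2A gene was higher in the pairs of Hist1h2ao with Hist1h2bq, Hist1h2ap with Hist1h2br and Hist3h2a with the pseudogene Hist3h2bb-ps. With the transcripts under other identifiers added, only the pair with the pseudogene kept a higher H2A gene in both libraries. Hist1h2br then stood at 4.09 and 7.12 TPM, above Hist1h2ap, and Hist1h2bq at 5.48 and 4.37 TPM, above Hist1h2ao in replicate 1 and below it in replicate 2. H2B was then higher in 9 pairs. Summed over the gene rows of the pairs, the H2B genes reached 69.2 TPM and the H2A genes 13.6.

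**Figure D3:**
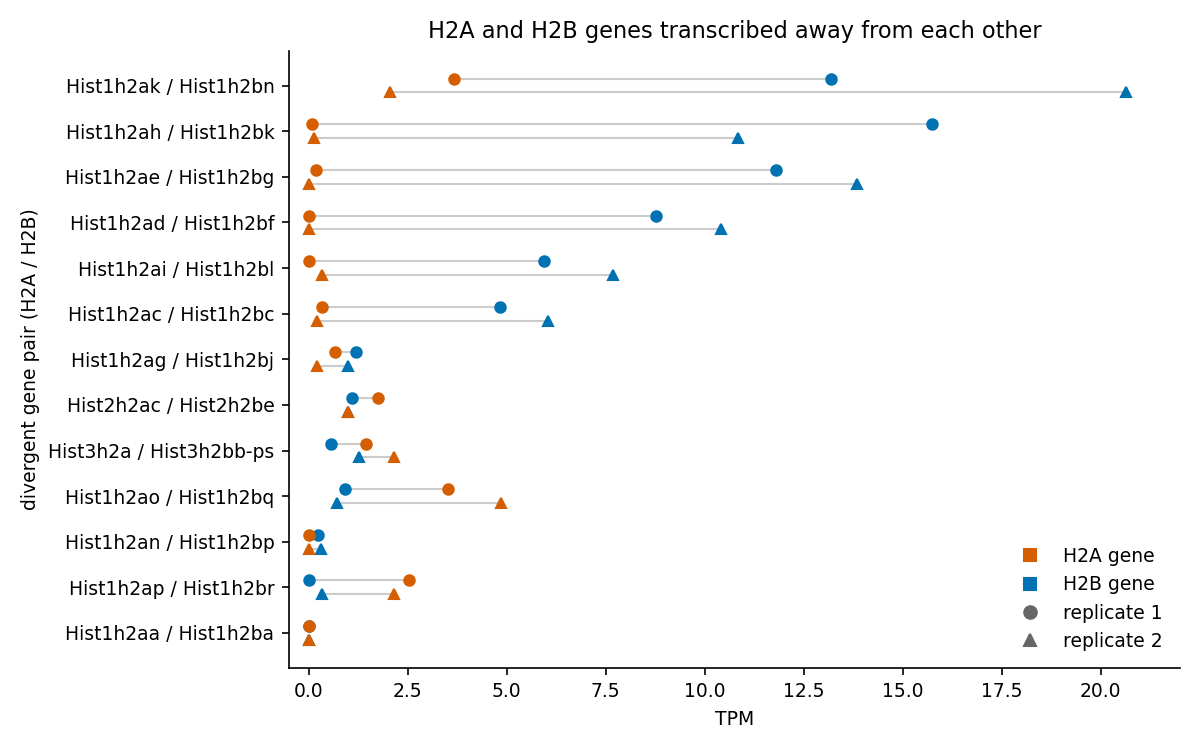
TPM (horizontal axis) of the H2A gene (orange) and the H2B gene (blue) of 13 divergent pairs in replicate 1 (circles) and replicate 2 (triangles). In the 6 uppermost pairs the H2B gene lies to the right of its H2A partner in both libraries; Hist1h2ao and Hist1h2ap lie to the right of theirs over the gene rows plotted here, which is not so in both libraries once the Hist1h2bq and Hist1h2br transcripts under other identifiers are added.

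**Figure D4:**
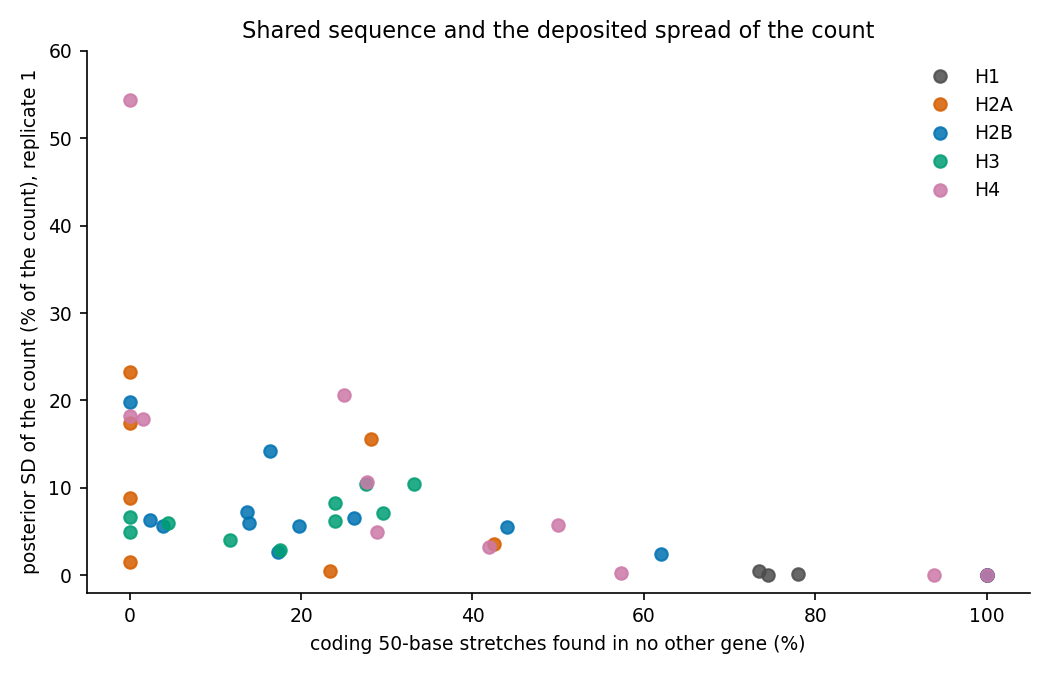
Posterior SD of the count as a percent of the count in replicate 1 (vertical axis) against the percent of a gene's coding 50-base stretches found in no other gene (horizontal axis), for members with at least 20 counts there. H1 genes lie at the lower right, and the largest value, 54.4% for Hist1h4n, lies at 0% own sequence.

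Promoter sequence is shown for Hist1h1e and Hist1h4d, the highest members, and for Hist1h2bk, whose upstream region is shared with the much lower Hist1h2ah. The 250 bases before the RefSeq start (GRCm38.p6) are given on the coding strand. Capitals mark matches, on either strand, to the CCAAT box (CCAAT), the TATA box (TATAAA), the octamer (ATTTGCAT), the H1 box (AAACACA) and the H4 element (GGTCCG), none of which contains another.
Hist1h1e, chr13:23622559-23622808, - strand: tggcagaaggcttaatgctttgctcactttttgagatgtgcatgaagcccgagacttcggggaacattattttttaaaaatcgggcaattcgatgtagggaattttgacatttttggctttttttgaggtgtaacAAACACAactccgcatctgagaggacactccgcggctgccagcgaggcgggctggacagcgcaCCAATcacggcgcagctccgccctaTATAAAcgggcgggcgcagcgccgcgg
Hist1h4d, chr13:23581318-23581567, + strand: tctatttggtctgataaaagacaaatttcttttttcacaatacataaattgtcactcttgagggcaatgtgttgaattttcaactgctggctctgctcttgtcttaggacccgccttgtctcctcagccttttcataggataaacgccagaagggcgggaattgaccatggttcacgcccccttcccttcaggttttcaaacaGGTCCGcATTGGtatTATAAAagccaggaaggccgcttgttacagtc
Hist1h2bk, chr13:22035571-22035820, + strand: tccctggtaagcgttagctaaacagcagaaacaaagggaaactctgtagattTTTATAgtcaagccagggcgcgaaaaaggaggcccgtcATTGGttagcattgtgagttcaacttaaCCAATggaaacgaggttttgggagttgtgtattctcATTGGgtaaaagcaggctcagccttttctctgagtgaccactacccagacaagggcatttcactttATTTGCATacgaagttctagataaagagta

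RefSeq promoters of 300 bases, from 250 before to 50 after the start, were matched to 59 members and compared with all 32851 promoters of the table. CCAAT was found in 84.7% of these members and in 37.4% of all promoters. It was in every matched promoter of H1, H2A, H2B and H3 but in only 3 of 12 of H4. The octamer was found in 7 of 18 H2A and 5 of 13 H2B promoters, in none of the other families, and in 1.74% of all promoters. Windows of divergent H2A and H2B genes can overlap, so for each motif the same site can count for both genes. AAACACA was in 5 of 6 H1 promoters against 7.18% of all, and GGTCCG in 11 of 12 H4 promoters against 8.25% of all. TATAAA was in 59.3% of matched members and 13.6% of all promoters. Both genes of the pair Hist1h2bk and Hist1h2ah hold the octamer, CCAAT and TATAAA in this window, since their windows overlap. Within the 250 bases shown for Hist1h2bk, TATAAA matched only on the other strand. All of these are matches of letters on either strand and not measured binding sites.

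By position, members of the chromosome 13 cluster Hist1 held most of the level. A gap of at least 200 kb divides it into a part nearer the centromere with 23 members, a distal part with 30, and Hist1h2al alone, which had 0 counts. The distal part reached 230.4 and 230.1 TPM, or 63.5 ± 0.16% of histone TPM, and includes Hist1h1e and Hist1h4d. The proximal part reached 88.9 and 91.0 TPM, or 24.8 ± 0.51%, led by Hist1h1b. Hist2 on chromosome 3 held 10.4 ± 0.87% with 9 genes, and 17.8 ± 0.75% with the transcripts under other identifiers, nearly all of the increase being Hist2h2bb. Hist3 on chromosome 11 held 0.97 ± 0.11% and Hist4 on chromosome 6 held 0.31 ± 0.09%. The distal part kept the largest share under every alternative that was run.

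**Figure D5:**
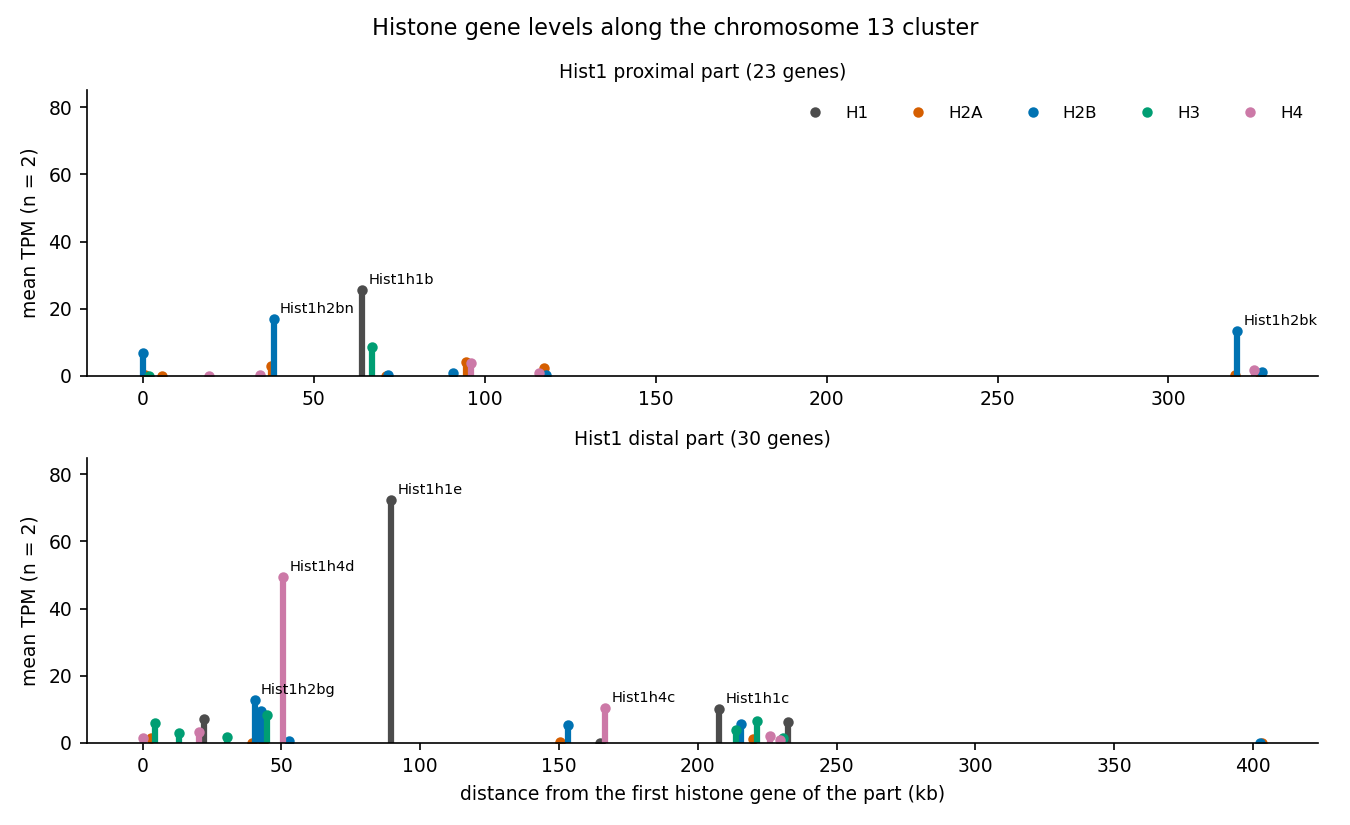
Mean TPM (vertical axis, n = 2) of histone genes against the distance in kb from the first histone gene of the proximal part (above, 23 genes) and the distal part (below, 30 genes) of the chromosome 13 cluster, coloured by family. Hist1h4d and Hist1h1e stand apart from their neighbours in the distal part, and genes at 10 TPM or more are named.

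The level of a short histone gene depends on the length its model is given. Members were used if they had 1 deposited transcript and exactly 1 reference transcript with a stem-loop and its deposited length. Hist2h3c1, with several such reference transcripts, and Hist1h2bp, with several deposited ones, were left out. In the 25 members used, the model ran more than 50 bases past the stem-loop in 11 and more than 200 in 7. For Hist2h4 the model has 1630 bases, of which 1257 follow the stem-loop, and for Hist1h1c it has 1560, of which 840 follow it. Dividing the same counts by the length up to the stem-loop, which takes all reads to lie before it, raised Hist2h4 from 6.05 ± 0.11 to 39.1 ± 0.91 TPM. By the same step Hist1h1c rose from 10.1 ± 0.29 to 24.8 ± 0.41 TPM, and Hist3h2a, with 1643 bases past the stem-loop, from 1.80 ± 0.51 to 10.1 ± 3.11. Hist2h4 would then be the third highest among the gene rows. H4 rose to 117 ± 2.29 TPM and H2A to 28.7 ± 1.35, still the lowest family. In these totals only the 25 members were shortened, and all others kept their deposited lengths. Where along the models the reads lie is not in the tables.

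Of the members with more than 1 deposited transcript, Hist1h2be, Hist1h2bp, Hist1h2bq and Hist1h2br, all of H2B, none reached a mean of 1 TPM over its gene row. Transcripts that are spliced or run more than 50 bases past the stem-loop held 84.4 ± 10.7% of their summed TPM. The rest lay in 1 Hist1h2be transcript of 2099 bases, at 0.48 and 0.14 TPM, in which no stem-loop was found with 1 mismatch allowed. The short transcript of Hist1h2bp, which ends 38 bases past its stem-loop, stood at 0 TPM in both libraries. For Hist1h2bq the spliced transcript of 2121 bases held the whole gene row, at 0.92 and 0.71 TPM. With the short transcripts of Hist1h2bq and Hist1h2br that are filed elsewhere, the share was 14.0%. For Hist1h2bq and Hist1h2br the high share therefore belongs to the gene rows and not to the genes. No transcript of Hist1h2be or Hist1h2bp was filed elsewhere, and the spliced transcript of Hist1h2bp held its whole gene row in both libraries.

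The libraries gave similar levels for most members. Among 47 members with a mean of at least 20 counts, the median log2 ratio of replicate 2 to replicate 1 was -0.16, beside 0.02 over the 9958 genes of that depth, after scaling by edgeR's TMM. At a mean of at least 100 counts, 27 of 32 members lay within 1.5 times of each other, or 84.4%, beside 76.7% of all genes. More than 2 times higher in replicate 2 was 1 member, beside 4.65% of all genes, and more than 2 times higher in replicate 1 were 2, beside 2.68%. These 3 of 32 members, or 9.38%, compare with 7.34% of all genes in either direction. Those higher in replicate 1 were Hist1h2be (139 and 92.6 counts, log2 ratio -1.21) and Hist1h2bb (166 and 128 counts, log2 ratio -1.01). Hist1h2bb passed with TMM but not with DESeq2 size factors or the library total. The member higher in replicate 2 was Hist2h3c1, with 0 and 215 counts. A transcript of the same gene filed under Gm20634 had 118 and 0 counts, so each library's counts were placed on a different one of 2 models that share all coding stretches, and over both the gene stood at 0.97 and 1.22 TPM. The deposited posterior means of TPM for the gene row were 0.51 and 0.72.

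Fractional counts were common. Of 58 members with counts, 52 had a count that was not whole (beyond 0.005), or 89.7%, beside 20.2% of all genes with counts. The 6 with whole counts in both libraries were led by Hist1h1b and include Hist2h4. The 9 members listed at 0 in both were Hist1h2aa, Hist1h2ad, Hist1h2aj, Hist1h2al, Hist1h2an, Hist2h2aa1, Hist1h2ba, Hist1h3h and Hist1h4j. A count of 0 allows up to 3 counts, which equals 0.0454 to 0.192 TPM over these genes and libraries. That limit covers counting error only and not the division of shared reads, for which Hist1h3h is an example.

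Replacement variants gave a different picture in each family. In H1, the dependent genes exceeded the replacement genes H1f0 and H1fx by a log2 ratio of 8.46 ± 0.13, since H1f0 stood at 0.36 and 0.30 TPM. In H2A the log2 ratio was -0.86 ± 0.17, with H2afz, the gene of H2A.Z, at 25.3 ± 1.49 TPM, above the 19.4 ± 1.20 TPM of the dependent gene rows but below their 28.7 ± 1.35 TPM with length up to the stem-loop. In H3 it was -0.16 ± 0.19, with H3f3a and H3f3b, which encode H3.3, at 48.8 ± 2.12 and 19.2 ± 2.38 TPM and Cenpa of the centromere at 4.66 ± 1.41. The H3 ratio did not differ from 0 beyond the spread between the libraries, and in expected counts it was -1.63.

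Slbp, the stem-loop binding protein, stood at 5.89 and 6.68 TPM and was the highest of 14 genes for processing of histone pre-mRNA, of which 2 were detected. Their median was 0.895 TPM. Of all nuclear protein-coding genes 14.5% reached the same threshold, and their median level was 0.035 TPM. The other detected gene was Srrt at 1.48 ± 0.18 TPM, then came Sympk (1.30 ± 0.55) and Cpsf3 (1.00 ± 0.17). Lsm10 and Lsm11, ring proteins of the U7 particle that cuts histone pre-mRNA, stood at 0.50 ± 0.33 and 0.015 ± 0.02 TPM, and Zfp473 at 0.015 ± 0.02. Of 9 genes for histone gene transcription 3 were detected, with a median of 0.965 TPM. The highest were Ccne2 (2.12 ± 0.18 TPM), Ccne1 (1.98 ± 1.39), Yy1 (1.87 ± 0.76) and Cdk2 (1.30 ± 0.23), and the lowest were Npat (0.41 ± 0.16), the coactivator of histone genes, and Hinfp (0.13 ± 0.04), which binds H4 promoters. Casp8ap2 stood at 0.97 ± 0.08 TPM.

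For histone mRNA decay, 1 of 6 measured genes was detected, beside 14.5% of all nuclear protein-coding genes at the same threshold. It was the exonuclease Xrn1 at 2.18 ± 0.90 TPM. Eri1, which trims the stem-loop, was at 0.92 ± 0.15, Exosc10 at 0.66 ± 0.24, Upf1 at 0.41 ± 0.06, Lsm1 at 0.37 ± 0.08 and Dcp2 at 0.28 ± 0.09. Among 14 histone chaperone and import genes 11 were detected, led by Nap1l1 (5.15 ± 1.27 TPM), Rbbp7 (3.84 ± 1.04), Rbbp4 (3.13 ± 0.33) and Ssrp1 (2.90 ± 0.08). The lowest were Chaf1b (0.63 ± 0.37) and Chaf1a (0.45 ± 0.13), subunits of the chaperone that places H3 and H4 on new DNA. These levels are RNA per length, and no protein was measured.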

How the data were processed

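Total RNA of 2 libraries was quantified by the authors per gene and per transcript, on mm10 with the GENCODE M4 annotation per the deposited read-me. No source names the aligner or quantifier (not given in the sources used here), nor their settings. Deposited expected counts share out reads that match several places and were rounded only for scaling. The deposited TPM values are scaled over all table rows, and deposited FPKM values and posterior mean TPM served as alternatives. The deposited percent of each gene's TPM per transcript was not tested further. The deposited length less the effective length was 135 and 151 bases in long genes, so short genes are sensitive to this correction.

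Symbols, positions and sequences come from GENCODE M21, the same build, and promoters from RefSeq. Scaling used edgeR 4.0.16 (TMM, prior count 2) with DESeq2 1.42.0 as an alternative, and was tested on simulated counts. Shared sequence was counted as 50-base stretches of M21 transcripts on both strands. M21 models had the deposited length for 48 of 67 members. With 1 group no test was possible, so values are the mean ± SD (n = 2) without p-values. Named genes were all H1 genes, the 5 highest in each other family, members at 0 or over 2 times apart, and the 4 highest and 2 lowest of each other list; further genes were named after their values were seen. Members and lists were chosen with earlier results of these data known. Of 8 listed decay genes, Zcchc11 and Zcchc6 were not matched.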

Additional observations from a re-analysis of the deposited data

How the results depend on the processing

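With n = 2 in 1 group no result had a test, so a value was set against the SD of its libraries. The median log2 ratio between libraries has no such SD. It was set against a spread of 1.12, which is too wide for its alternatives to count as moved. The median percent of own stretches had an SD of 0, so that any change counted as moved. Over 128 alternative values, 60 moved by no more than the SD or spread used (for counts of genes, by no more than 1.5 times) and 68 moved further. Only the log2 ratios could change sign, and none did in the settings run for them. Length up to the stem-loop was not run for the dependent to replacement ratios. With it, the H3 gene rows stood at 74.1 ± 4.44 TPM, beside 72.7 ± 5.92 for the H3 replacement genes. Additions chosen after seeing the data are the transcripts under other identifiers, the length up to the stem-loop (changed for 25 members only) and coding-only sequence. Total histone TPM was 360.3 by the posterior mean, 311.5 from counts over full gene length, 325.6 in FPKM, 241.3 over members with at least 50% of own 50-base stretches, 406.6 with the added transcripts and 434.9 with length up to the stem-loop. Its percent of nuclear protein-coding TPM was 0.288 in counts, 0.659 over full length, 1.31 without globin genes and 0.831 with the added transcripts.

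In counts without length correction, the shares of H1, H2B, H3 and H4 were 44.7%, 16.2%, 16.5% and 17.3%; over full length, those of H1, H2B and H4 were 37.0%, 19.7% and 20.2%. Over members with at least 50% of own stretches, the shares of H1, H2A, H2B, H3 and H4 were 50.2%, 0.896%, 11.4%, 6.76% and 30.7%. With the added transcripts they were 29.8%, 4.76%, 29.5%, 16.1% and 19.9%, and with length up to the stem-loop 31.3%, 6.60%, 18.2%, 17.0% and 26.9%. H1 was the highest in each of these, with the added transcripts by less than the SD, and H2A the lowest. The order of H2B, H3 and H4 was not stable.

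For the proximal part of Hist1 the share was 19.5% in counts, 23.8% over full length, 11.4% with own stretches and 21.6% up to the stem-loop. For the distal part it was 63.3% by the posterior mean, 61.1% in counts, 63.7% over protein-coding members, 83.8% with own stretches, 56.6% with the added transcripts and 57.4% up to the stem-loop. Hist1h2al took 0.018% by the posterior mean. Hist2 took 15.3% in counts, 2.94% with own stretches, 17.8% with the added transcripts and 17.8% up to the stem-loop. Hist3 took 2.38% in counts, 1.10% over full length, 0.723% over protein-coding members, 1.46% with own stretches and 2.81% up to the stem-loop. Hist4 took 1.68%, 0.395% and 0.459% in counts, over full length and with own stretches.

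The log2 ratio of dependent to replacement genes in counts was 6.79 for H1, -1.96 for H2A and -1.63 for H3, and over full length 8.25, -1.15 and -0.44. Members more than 2 times higher in replicate 1 numbered 1 by DESeq2 size factors, 1 by library total and 4 from a mean of 20 counts. The median percent of own stretches was 45.0 at 50 bases, 38.6 at 36 bases, 62.9 at 100 bases and 21.6 over coding sequence. The share in transcripts past the stem-loop was 14.0% with the transcripts under other identifiers. Leaving out a library gives the other library's value, which with n = 2 cannot lie beyond the SD. Such values show nothing about stability and, except for counts of genes, are not among the 128. The number of members detected was 40 or 42 with 1 library left out. No paired analysis was possible because the series has 1 group. Depth limits members under 10 counts, of which there were 16 by mean.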
